A study of Mus musculus with 9 samples.

Results

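The 8 genes described here are the annexins Anxa1, Anxa2, Anxa3, Anxa4, Anxa5, Anxa6, Anxa7 and Anxa11, taken by gene symbol from a deposited count table of 56748 genes that lists 12 annexin genes in all. They were selected on their formoterol-vehicle differences in these same libraries. Those differences are therefore given as a description, and calls by any test are counted without being read as support. The RNA, enriched for poly(A), came from whole liver tissue of C57BL/6J males killed at 28 weeks of age. A high-fat diet was given to all of them from 8 weeks of age, over 20 weeks, so no group without the diet stands beside them. The formoterol group (5 libraries, M46 to M50) received 1 mg/kg of formoterol, a long-acting beta-adrenergic agonist that signals through cyclic AMP, by daily injection into the peritoneum over the last 4 weeks of the diet. The vehicle group (4 libraries, M56, M58, M59 and M60) received DMSO by the same route. Groups were read from the last letter of the column names and from the group sizes, and the direction of each difference rests on that reading. No label says which mouse a library came from, and if libraries shared an animal the spread between them may be technical.

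Annexins are proteins that bind membranes rich in acidic phospholipids when calcium rises, through a conserved core of repeats, and each has its own N-terminal region. Annexin A5 binds phosphatidylserine, the lipid that dying cells expose, and annexin A2 works at the plasma membrane in complex with the small protein S100A10. Annexin A1 restrains inflammation through formyl peptide receptors, and annexins A7 and A11 carry long N-terminal regions that bind the calcium sensor PDCD6. In healthy liver Anxa2 and Anxa5 transcripts are known mostly from cells other than hepatocytes and from bile duct epithelium.

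Depth ranged from 12336665 to 20339665 counts per library, and 13042 genes had enough counts to be tested. All 8 genes passed that filter, with 553 counts over all libraries for Anxa3, the lowest of them, and 18068 for Anxa7, the highest. The 4 other annexins lay below: Anxa9 had 240 counts in all, Anxa13 176, Anxa8 146 and Anxa10 none. Hepatocyte genes dominated every library, as the label of bulk liver implies, with 8 hepatocyte markers summing to between 88039 and 141252 CPM (read counts relative to library size, adjusted by TMM factors). Library M49 of the formoterol group stood apart from the other 4 in several of the values below, and the levels of Anxa2 and Anxa5 are given with and without it.

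Anxa2 and Anxa5 were low in 4 of the 5 formoterol livers and at the vehicle level in the fifth. Anxa2 lies on chromosome 9 (69360902 to 69399077 on mm39, plus strand, ENSMUSG00000032231). Its level in the vehicle livers M56, M58, M59 and M60 was 40.0, 42.7, 48.5 and 38.5 CPM. In the formoterol livers M46, M47, M48 and M50 it was 10.2, 11.6, 15.9 and 14.4 CPM, and in M49 it was 43.7 CPM. The 4 low livers therefore lay below every vehicle liver, while M49 lay inside the vehicle range, so the groups overlapped through that library alone. Group means were 19.1 ± 13.9 CPM (SD, n = 5) with formoterol and 42.4 ± 4.39 (SD, n = 4) with vehicle. The log2 fold change, formoterol minus vehicle, was −1.14 (SE 0.38), and −1.71 (SE 0.17) without M49. M49 was singled out on values that include Anxa2 and Anxa5. Leaving it out therefore enlarges their differences and narrows their SE by the choice itself, and carries no support. In bulk tissue, fewer cells of a type and less RNA per cell cannot be told apart.

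Anxa5 lies on chromosome 3 (36503072 to 36530043 on mm39, minus strand, ENSMUSG00000027712). Vehicle livers had 115, 99.5, 148 and 84.3 CPM in the same order of libraries. Formoterol livers M46, M47, M48 and M50 had 34.1, 51.0, 39.0 and 45.7 CPM, against 118 CPM in M49. As for Anxa2, those 4 were below all vehicle livers and M49 was within the vehicle range. The means were 57.5 ± 34.3 CPM with formoterol and 112 ± 27.4 with vehicle, and 42.5 ± 7.43 for the 4 formoterol livers without M49. The log2 fold change was −0.96 (SE 0.34) with all libraries and −1.40 (SE 0.19) without M49, with the same limit as for Anxa2. Relative to the vehicle mean, the 4 low livers held 0.240 to 0.374 of the Anxa2 level and 0.305 to 0.456 of the Anxa5 level, and M49 held 1.03 and 1.05.

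**Figure D1:**
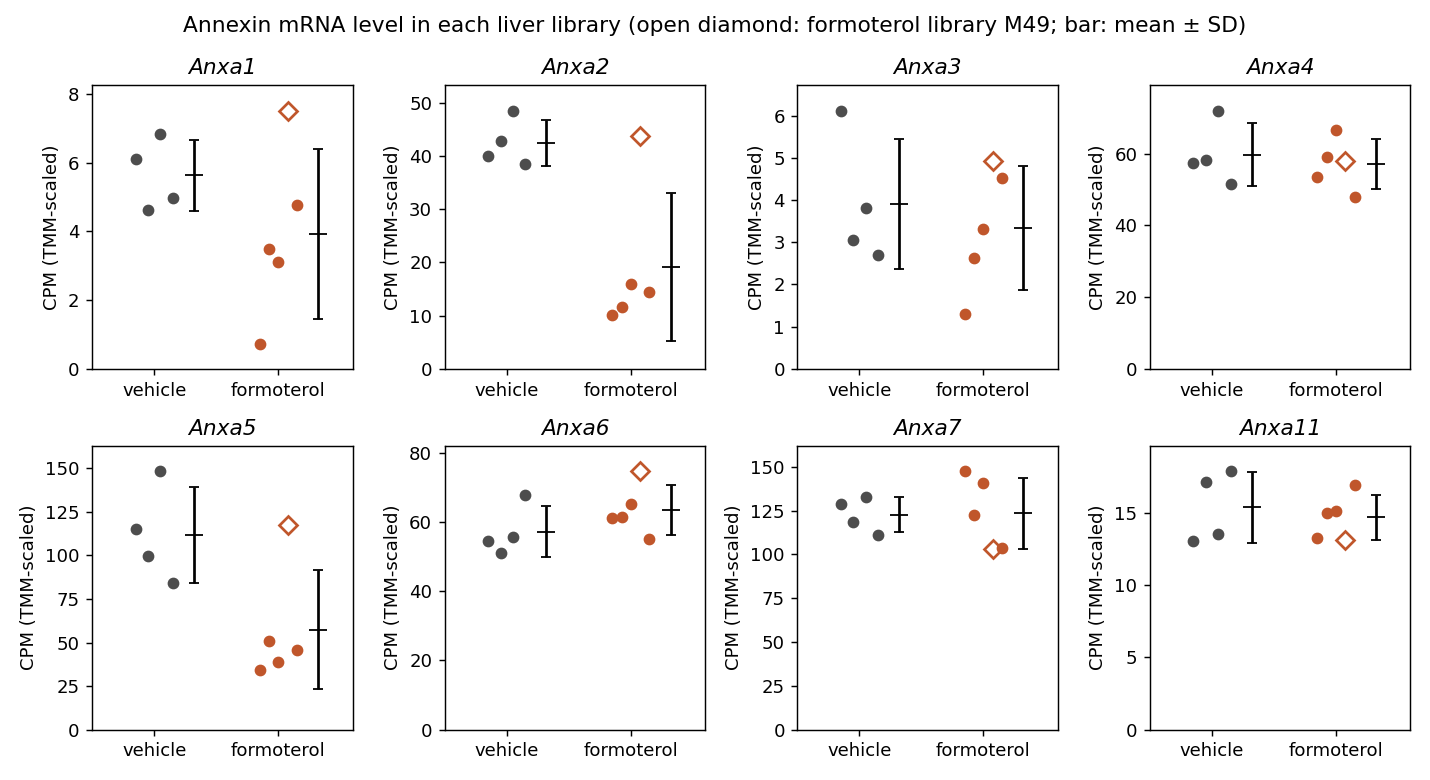
Level of each of the 8 annexin genes in CPM (vertical axis, from 0, scaled separately for each gene) in the 4 vehicle and 5 formoterol libraries, 1 point per library, with group mean ± SD. For Anxa2 the 4 filled formoterol points lie between 10.2 and 15.9 CPM and for Anxa5 between 34.1 and 51.0 CPM, below all vehicle points, while the open diamond, M49, lies among the vehicle points.

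The promoters of these 2 genes are shown because their levels moved together across the libraries. RefSeq promoter windows on build GRCm38.p6, which is not the build of the counts, were at hand for 6 of the 8 genes (8 windows) and not for Anxa3 and Anxa6. The 250 bases before the start of Anxa2 (chr9:69453433-69453682, plus strand) and of Anxa5 (chr3:36475888-36476137, minus strand) are written 5′ to 3′, with capitals for matches to the AP-1 motif TGANTCA and to the TATA motif TATAAA.
Anxa2: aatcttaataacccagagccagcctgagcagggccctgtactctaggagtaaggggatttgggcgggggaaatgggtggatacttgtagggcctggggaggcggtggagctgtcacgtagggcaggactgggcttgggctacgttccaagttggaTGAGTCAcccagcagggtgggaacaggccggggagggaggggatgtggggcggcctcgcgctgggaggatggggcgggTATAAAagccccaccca
Anxa5: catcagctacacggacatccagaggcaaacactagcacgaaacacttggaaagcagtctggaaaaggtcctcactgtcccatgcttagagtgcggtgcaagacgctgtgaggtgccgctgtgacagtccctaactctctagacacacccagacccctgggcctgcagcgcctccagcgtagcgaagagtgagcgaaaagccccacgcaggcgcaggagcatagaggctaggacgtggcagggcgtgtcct
In the Anxa2 window the AP-1 match TGAGTCA begins 95 bases before the start and the TATA match 17 bases before it, and the Anxa5 window holds neither. Of 32851 promoter windows of the same length, 6.75% hold TGANTCA and 12.4% hold TATAAA on either strand. Among the other annexins with a window, Anxa1 holds TATAAA 32 bases before its start. The cyclic AMP response element TGACGTCA is in none of the 8 annexin windows and in 1.55% of all windows. Its shorter form TGACG, which every full element contains, is in 1 of the 8, the upstream region of a second Anxa4 start, and in 17.8% of all windows. A match is a run of letters and not a measured binding site.

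Anxa1 and Anxa3 were the low-abundance members, and their values were spread widely. Anxa1 (chromosome 19, 20350792 to 20368308, minus strand) had 6.12, 4.61, 6.84 and 4.96 CPM in the vehicle livers. It had 0.73, 3.47, 3.11 and 4.77 CPM in the formoterol livers M46, M47, M48 and M50 and 7.51 CPM in M49, the highest of all 9. In 3 of 5 formoterol livers Anxa1 lay below every vehicle liver, in M50 it lay among them, and in M49 above them. The log2 fold change was −0.51 (SE 0.43), −0.89 without M49 and −0.26 without M46, whose value rests on 9 counts. An antisense transcript, 1500015L24Rik, overlaps Anxa1 with at most 4 counts in a library. Reads of the 2 cannot be told apart where the counting ignored strand, so the lowest Anxa1 values are uncertain.

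Anxa3 (chromosome 5, 96941198 to 96993825, plus strand) had 6.12, 3.04, 3.81 and 2.69 CPM in the vehicle livers. Formoterol livers M46 to M50 had 1.30, 2.62, 3.31, 4.92 and 4.53 CPM. The groups overlapped over most of their range, and the log2 fold change of −0.22 (SE 0.37) turned to 0.08 without vehicle library M56. Anxa3 had 16 to 105 counts per library.

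Anxa4, Anxa6, Anxa7 and Anxa11 varied little. Across the 9 libraries their highest value was 1.37 to 1.497 times their lowest, against 4.35 times for Anxa5, 4.70 times for Anxa3, 4.77 times for Anxa2 and 10.2 times for Anxa1. Anxa4 (chromosome 6, 86713822 to 86770566, minus strand), an annexin known from secretory epithelia, had 59.7 ± 8.68 CPM with vehicle and 57.1 ± 6.91 with formoterol. Its log2 fold change of −0.07 (SE 0.14) turned to 0.04 without vehicle library M59. Anxa6 (chromosome 11, 54869934 to 54924271, minus strand), the annexin with a doubled core, had 54.4, 51.1, 55.6 and 67.9 CPM in the vehicle livers. It had 61.1, 61.5, 65.2, 74.6 and 55.2 CPM in formoterol livers M46 to M50, with M49 the highest of the 9. The log2 fold change of Anxa6 was 0.15 (SE 0.14), between 0.0048 and 0.24 over all scalings, tests and omissions of a library.

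Anxa7 (chromosome 14, 20505328 to 20530201, minus strand) had the most counts of the family, 123 ± 9.86 CPM with vehicle and 124 ± 20.3 with formoterol. M49 was the lowest of the 9 for this gene at 103 CPM and M46 the highest at 147 CPM, the reverse of their places for Anxa2, Anxa5 and Anxa1 among the formoterol livers. Its log2 fold change of 0.01 (SE 0.15) changed sign under upper-quartile or library-total scaling, by limma-voom with or without quality weights and without any 1 of M46, M48, M58 or M60. Anxa11 (chromosome 14, 25842580 to 25887228, plus strand), which like Anxa7 has a long N-terminal region, had 15.4 ± 2.45 CPM with vehicle and 14.7 ± 1.57 with formoterol. Its log2 fold change was −0.07 (SE 0.16), positive without M60 or by limma-voom with quality weights.

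**Figure D2:**
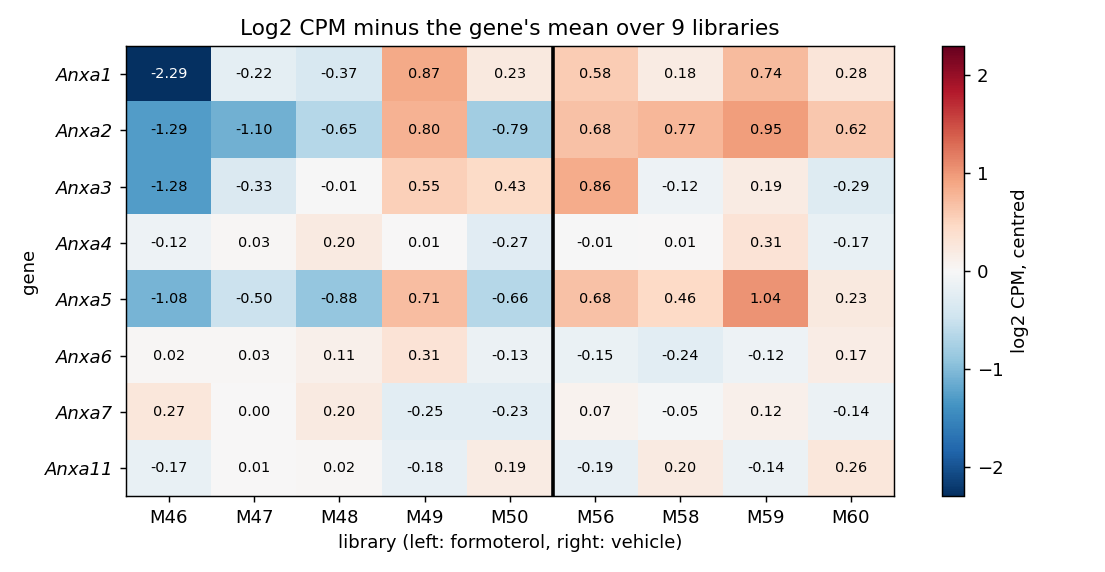
Log2 CPM of each annexin (rows) minus that gene's mean over the 9 libraries, by library (columns, formoterol left of the black line and vehicle right); colour and printed value give the same number. Anxa2 and Anxa5 are below 0 in M46, M47, M48 and M50 and above 0 in M49 and every vehicle library, while no value of Anxa4, Anxa6, Anxa7 or Anxa11 lies beyond 0.31 in either direction.

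Counted over the members, 6 of 8 log2 fold changes were negative, where 51.3% of all genes tested were negative. That count was 5 to 7 under the other scalings and tests and with single libraries left out. The median of the 8 was −0.14, against −0.01 over all 13042 genes. Formoterol and vehicle values did not overlap for 0 of the 8 members, where 2.38% of all genes tested were lower without overlap and 2.45% higher. Without M49, the groups were lower without overlap for 2 of the 8, Anxa2 and Anxa5, where the share over all genes was 6.71%, and higher without overlap for 0, against 7.62% of all genes. The quasi-likelihood test of edgeR, adjusted over all genes, called 0 of the 8 and 0% of all genes with all libraries. At an unadjusted p under 0.05 the same test had 2 of the 8 lower, against 5.53% of all genes. Without M49 it called 2 of the 8 lower, Anxa2 and Anxa5, against 2.04% of all genes. With all libraries DESeq2 called 1 lower (0.826% of all genes) and limma-voom 0 (0%), and with quality weights on the samples limma-voom called 2 (4.46%). The members were picked with this contrast known, and M49 is singled out on values that include Anxa2 and Anxa5. These calls therefore cannot test the members, and nothing is read from these counts.

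**Figure D3:**
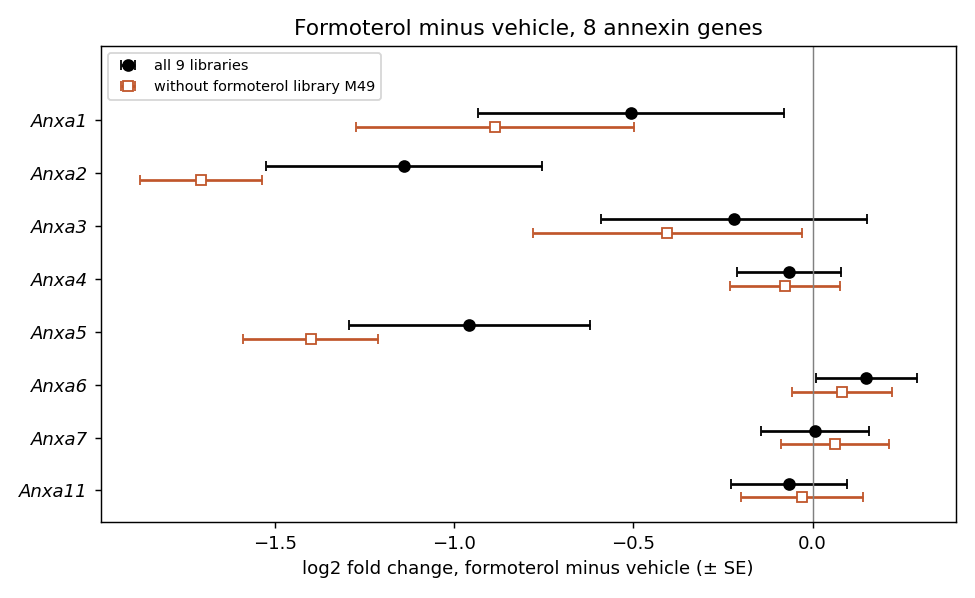
Log2 fold change, formoterol minus vehicle, with SE (horizontal axis) for each of the 8 annexin genes (rows), from all 9 libraries (filled circles) and without formoterol library M49 (open squares). Anxa2 moves from −1.14 to −1.71 and Anxa5 from −0.96 to −1.40 when M49 is left out. Anxa4, Anxa6, Anxa7 and Anxa11 stay between −0.08 and 0.15. M49 was singled out on values that include Anxa2 and Anxa5, so the shift of those genes carries no support.

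Scaled to deposited gene length, Anxa5 had the highest mean of the annexins in both groups. Its level was 62.9 ± 15.4 CPM per kilobase (TMM-scaled) with vehicle and 32.4 ± 19.3 with formoterol. The order rests on those lengths, 1777 bases for Anxa5 and 5991 for Anxa7, which need not be the lengths of the transcripts present. Before scaling, mean Anxa7 was above mean Anxa5, at 123 against 112 CPM with vehicle and 124 against 57.5 with formoterol. Anxa6 (20.7 ± 2.57 over all 9 libraries) and Anxa7 (20.6 ± 2.60) came next and did not differ beyond their spread, Anxa6 being above Anxa7 in 4 of 9 libraries. Anxa4 followed at 12.5 ± 1.58 and was below Anxa7 in 9 of 9 libraries, and Anxa2 at 7.90 ± 4.28 was below Anxa4 in 9 of 9. Anxa11 had 3.63 ± 0.46 and lay below Anxa2 in 6 of 9 libraries, the exceptions being formoterol livers M46, M47 and M50. Anxa1 at 1.61 ± 0.71 and Anxa3 at 0.99 ± 0.39 closed the list, and Anxa3 was above Anxa13 (0.85 ± 0.53), an annexin of gut epithelium that is no member, in only 5 of 9 libraries. Anxa13, Anxa9 (0.77 ± 0.50) and Anxa8 (0.51 ± 0.14) overlapped in their ranges, and Anxa10, known from stomach, had 0 counts in all 9 libraries.

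The make-up of the family differed between the livers with the level of Anxa5. Anxa5 is itself a large part of the summed level. Its share and the sum therefore restate its level and are no separate result, and both depend on the deposited gene lengths. Anxa5 held 48.1%, 45.2%, 52.2% and 40.4% of the summed length-scaled level of the 8 genes in the vehicle livers. It held 23.2%, 31.4%, 23.9% and 30.9% in formoterol livers M46, M47, M48 and M50 and 47.2% in M49. Anxa5 was the highest member in every vehicle liver and in M47, M49 and M50, while in M46 and M48 Anxa7 and Anxa6 were both above it. The summed level was 134 ± 18.7 CPM per kilobase with vehicle and 97.9 ± 24.1 with formoterol, with M49 at 140.3 and the other 4 between 82.7 and 91.9.

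**Figure D4:**
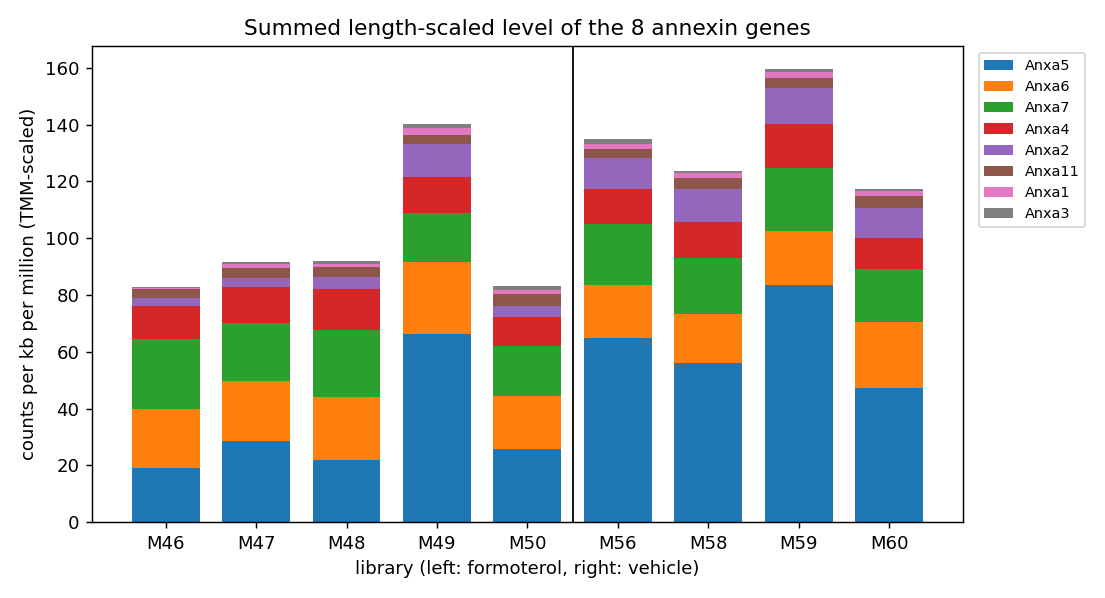
Length-scaled level of the 8 annexin genes (CPM per kilobase, TMM-scaled, stacked from 0) in each library, formoterol left of the line and vehicle right. The Anxa5 part is 19.2 to 28.7 in M46, M47, M48 and M50, 66.2 in M49 and 47.4 to 83.4 in the vehicle livers, while the Anxa6, Anxa7 and Anxa4 parts change little.

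Among the members themselves, the distance between 2 genes was taken as the root mean square difference of their centred log2 CPM over the 9 libraries. Anxa2 and Anxa5 differed by 0.29 and Anxa1 and Anxa3 by 0.48. Within Anxa4, Anxa6, Anxa7 and Anxa11 the 6 distances were 0.17 to 0.29. Between either Anxa2 or Anxa5 and any of those 4 they were 0.70 to 0.95. The distance is not scaled to how much a gene varies, so genes that vary little lie close whether or not they move together. Anxa7 and Anxa11, at 0.29, had opposite signs in M46 (0.27 and −0.17) and in M60 (−0.14 and 0.26). M49 was the highest formoterol liver for 5 of the 8 genes (Anxa1, Anxa2, Anxa3, Anxa5 and Anxa6), and M46 the lowest for 4 (Anxa1, Anxa2, Anxa3 and Anxa5).

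The same distance was used to find the genes outside the family, of 11747 with a symbol of their own, whose pattern lay closest. For Anxa5 the nearest were Hsd17b13, an enzyme of hepatocyte lipid droplets (distance 0.17), Tlr12, a Toll-like receptor (0.17), Cln6, an endoplasmic reticulum protein needed for lysosome function (0.21), the pseudogene Pgam1-ps2 (0.21) and Slc20a1, a phosphate transporter (0.24), where the median gene was at 0.80. Hsd17b13 had 251, 176, 267 and 181 CPM in the vehicle livers, 84.1, 110, 93.6 and 91.5 CPM in M46, M47, M48 and M50 and 210 CPM in M49. For Anxa2 the nearest were Tlr12 (0.21), Tbc1d31 (0.24), Plin4, a lipid droplet coat protein (0.27), Dlx1as (0.27) and Otulinl (0.28), where the median gene was at 0.92. Plin4 had 20.3, 24.0, 16.9 and 16.8 CPM in the vehicle livers, 6.51, 5.46, 5.77 and 7.82 CPM in the 4 low formoterol livers and 20.5 CPM in M49. Dlx1as, an antisense transcript, and Pgam1-ps2, which may share reads with its parent gene, are uncertain. Distances of Cln6, Pgam1-ps2, Dlx1as and Otulinl also rest on low counts. Their lowest values were 0.65 CPM (M46), 0.26 (M48), 0.28 (M47) and 0.33 (M46). For the mean of the 8 annexins the nearest were Anks4b (0.10), Dgkz (0.11), Qser1 (0.12), Ulk1 (0.12) and Slf2 (0.12), with the median gene at 0.49. These distances share the same 9 libraries and describe likeness in them only.

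Markers of other liver cell types moved with library as well, and their summed levels are given beside the annexins. For 7 markers of monocytes and lipid-associated macrophages the sum was 46.6 to 90.2 CPM with vehicle, 22.3 to 37.3 in M46, M47, M48 and M50 and 63.9 in M49, so the same 4 livers lay below all vehicle livers as for Anxa2 and Anxa5. In those 4 livers the macrophage sum was 0.353 to 0.590 of the vehicle mean. Most of the sum was Lyz2 and Cd9, which each lay below all vehicle livers in those 4. The remaining markers of the list were lower and did not share that separation. Trem2, for example, had 1.43 CPM in M48 and 1.24 in M50, against 0.82 to 2.04 with vehicle. Of the 6 macrophage markers tested, 5 had a negative log2 fold change. For 8 markers of stellate cells and fibroblasts the sum was 131 to 221 CPM with vehicle, and 39.5, 92.7, 126, 203 and 142 CPM in M46 to M50. All 8 of them had a negative log2 fold change, as had all 6 endothelial markers given below, where 51.3% of all genes tested were negative. M50 was inside the vehicle range for that list, while its Anxa2 level was 0.338 of the vehicle mean. For 6 endothelial markers the sum was 72.7 to 96.8 CPM with vehicle and 28.1 to 89.7 with formoterol, M46 lowest and M49 highest. For 7 cholangiocyte markers it was 81.9 to 196 and 70.1 to 258 CPM, M49 highest, mostly from Spp1, with Cftr at 0 in M49. The part of these cells in the annexin levels was not tested.

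Kupffer cell markers (6 genes) summed to 47.5 to 82.0 CPM with vehicle and 37.3 to 85.5 with formoterol, M49 being at 72.4. Their level in M47, M48 and M50 was 1.04 to 1.17 of the vehicle mean, where Anxa2 was at 0.272 to 0.374. In M46 it was 0.511, where Anxa2 was at 0.240. That vehicle mean was lowered by M59 at 47.5 CPM. Against the vehicle median of 81.0 CPM, M47 (77.8) and M48 (75.6) lay below and M50 (85.5) above. Of the 6 Kupffer cell markers, 4 had a negative log2 fold change. Hepatocyte markers (8 genes) lay higher without overlap, 102120 to 141252 CPM against 88039 to 100092, with M49 the lowest of the formoterol livers. Most of that sum was Alb (albumin), which overlapped between the groups on its own (72733 to 105058 CPM with formoterol, 63462 to 73380 with vehicle), and 3 of the 8 markers (Apob, Tat and Hnf4a) had a negative log2 fold change. Lists with low counts were of little use: neutrophil markers (1 of 5 tested, Ly6g at 0 throughout) summed to 0.57 to 1.36 CPM with formoterol and 1.73 to 3.20 with vehicle. T and NK cell markers (0 of 6 tested) stayed between 0.71 and 2.06 CPM and mesothelial markers (0 of 5 tested) between 0.16 and 2.44. B and plasma cell markers (4 genes, 2.93 to 9.03 CPM) and erythroid markers (4 genes, 169 to 557 CPM) overlapped between the groups.

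**Figure D5:**
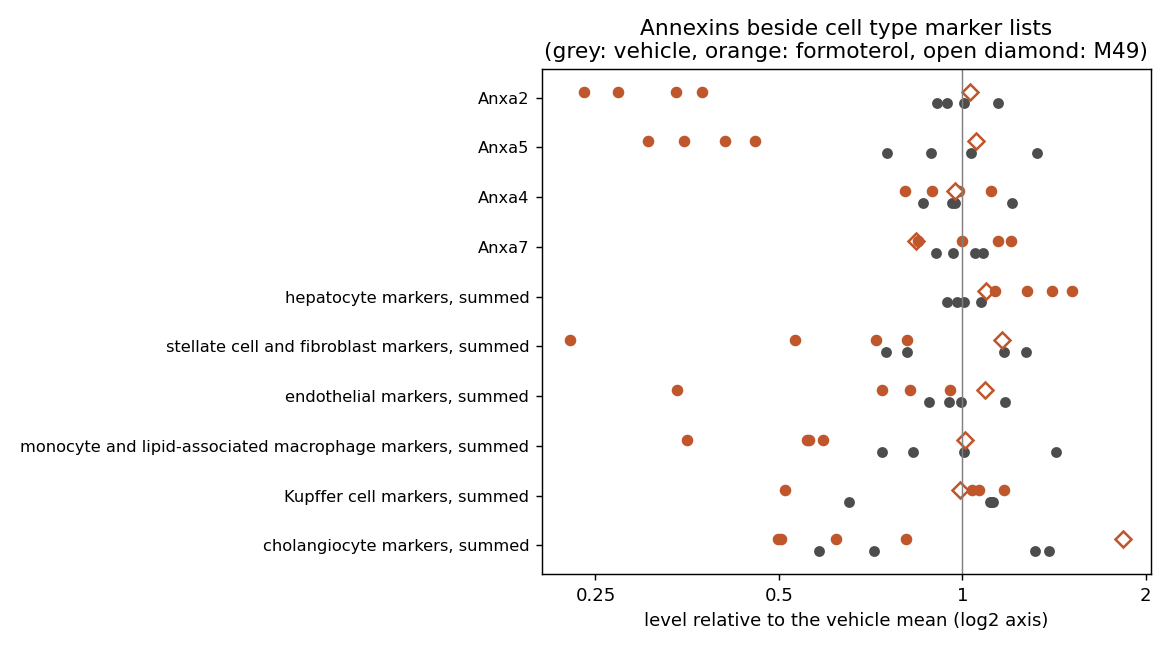
Level in each library relative to the vehicle mean (horizontal axis, log2 scale) for 4 annexins and for the summed markers of 6 liver cell types (rows), with vehicle libraries in grey, formoterol in orange and M49 as an open diamond. Anxa2, Anxa5 and the macrophage markers show 4 formoterol points left of all grey points and M49 among the grey points, while Anxa4, Anxa7 and the Kupffer cell markers overlap between the groups.

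Of 38 partner genes in 5 lists, 34 could be tested and edgeR called 0 after adjustment over all genes (at an unadjusted p under 0.05, 5 were higher, against 9.03% of all genes, and 1 was lower, against 5.53%). DESeq2, which gave an adjusted p for 27 of them, and limma-voom also called 0. Once limma-voom weighted the samples by quality, 8 of 34 passed, as did 1374 of all 13042 genes. Without M49 edgeR called 5 of 33, 3 higher and 2 lower, where it called 3.47% of all genes higher and 2.04% lower. M49 was singled out after its values were seen. Results without it, here and for single partners below, are therefore a description. The median log2 fold change of the 34 was −0.18, against −0.01 over all genes.

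The S100 partners did not follow a single course. S100a10, which forms the complex with annexin A2, had 131, 125, 139 and 132 CPM with vehicle. It had 119, 83.2, 135, 111 and 98.2 CPM in M46 to M50 (log2 fold change −0.27, SE 0.15, edgeR adjusted p = 0.438). Scaled to deposited gene length, Anxa2 stood at 0.105 ± 0.009 of the S100a10 level with vehicle. That ratio was 0.0278 to 0.0475 in the 4 low formoterol livers and 0.128 in M49. S100a11, a partner of annexins A1 and A2, had 17.9, 9.05, 18.3 and 7.34 CPM with vehicle and 3.17, 4.32, 6.03, 15.1 and 9.06 with formoterol, so the groups overlapped through M49 and M50 (log2 fold change −0.79, SE 0.43, edgeR adjusted p = 0.433, and −1.21 with adjusted p = 0.0693 without M49). S100a1, a partner of annexin A6, had 131 ± 25.8 CPM with formoterol and 90.5 ± 18.2 with vehicle (log2 fold change 0.53, SE 0.18, edgeR adjusted p = 0.214). By limma-voom with sample quality weights S100a1, S100a10 and S100a11 passed (adjusted p = 0.0285, 0.0374 and 0.0302). S100a6 stayed near 1 CPM (0.93 ± 0.31 with vehicle, 1.05 ± 0.38 with formoterol), and S100a4 had 3 counts in all.

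Genes of membrane repair and calcium adaptors, 9 of 10 tested, had 0 calls, with 3 positive and 6 negative log2 fold changes and a median of −0.11. Pdcd6ip, an adaptor of the membrane-scission machinery, had 47.3 ± 8.98 CPM with formoterol and 58.6 ± 4.22 with vehicle (log2 fold change −0.31, SE 0.15, edgeR adjusted p = 0.378). Capns1, the small calpain subunit, had 102 ± 13.3 against 122 ± 13.1 CPM. Ahnak, a scaffold that binds the annexin A2 complex, had 11.99 ± 4.08 against 14.6 ± 2.36 CPM, and Dysf, the repair protein dysferlin, 3.41 ± 1.82 against 2.49 ± 0.87. Fpr1, a formyl peptide receptor, had 0.76 ± 0.28 CPM with formoterol and 1.35 ± 0.22 with vehicle (log2 fold change −0.81, SE 0.45, edgeR adjusted p = 0.427), and the phospholipase Pla2g4a 0.62 ± 0.29 against 0.76 ± 0.32. Fpr2 was too low to be tested.

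The plasminogen system, whose activation annexin A2 assists at the cell surface, had 6 of 6 genes tested and 0 called. Serpinf2, the plasmin inhibitor of plasma, had 335 ± 103 CPM with formoterol and 220 ± 28.9 with vehicle (log2 fold change 0.61, SE 0.21, edgeR adjusted p = 0.223; adjusted p = 0.0284 without M49). Plg, plasminogen itself, had 886 ± 192 CPM with formoterol and 743 ± 62.0 with vehicle. Plau, an activator, had 0.96 ± 0.93 CPM with formoterol and 1.73 ± 0.81 with vehicle (log2 fold change −0.81, SE 0.59, edgeR adjusted p = 0.557). Without M49, whose 2.58 CPM was the highest Plau value of the formoterol livers, their mean was 0.56 ± 0.24 CPM and the log2 fold change −1.62 (SE 0.51, edgeR adjusted p = 0.0738).

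Among genes that expose, retain or clear phosphatidylserine, the lipid bound by annexin A5, 13 of 14 were tested and 0 called. Tmem30a, a subunit of the flippases that keep the lipid inside the cell, had 248, 222, 253, 129 and 140 CPM in M46 to M50 and 138, 130, 116 and 115 CPM in the vehicle livers. M49 was the only formoterol liver inside the vehicle range of Tmem30a, whose log2 fold change was 0.67 (SE 0.21) with an edgeR adjusted p = 0.191. Without M49 Tmem30a passed, with an edgeR adjusted p = 0.0260. With any other single library left out, its edgeR adjusted p was 0.155 to 0.481. Pros1, which bridges the lipid to its receptors, had 52.6 ± 9.13 CPM with formoterol and 40.0 ± 4.65 with vehicle, and the receptor Mertk 7.66 ± 2.61 against 10.9 ± 0.94. Gas6, the other bridging protein, is named after its values were seen. Over all libraries Gas6 had 47.9 ± 23.6 CPM with formoterol and 67.2 ± 12.6 with vehicle. Its log2 fold change was −0.49 (SE 0.28, edgeR adjusted p = 0.442), so it was not called. In M49 it had 89.0 CPM, above the vehicle livers at 52.9 to 83.0, and in M46, M47, M48 and M50 it had 41.5, 39.9, 28.3 and 40.9. Leaving out M49 gave −0.84 (SE 0.17, edgeR adjusted p = 0.0147).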

How the data were processed

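The deposited table holds the authors' read counts for each Ensembl gene, whole numbers that are not normalized, with gene coordinates and lengths. HISAT2 2.0.5, build mm39 and DESeq2 are named in the submitters' processing notes. Which program counted reads, and with what strand option, is not given in the sources.

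From these counts, genes were kept by filterByExpr (minimum count 10, minimum total 15), which left 13042 genes holding at least 99.84% of the counts of each library. The 2 groups were compared in R 4.3.3 by edgeR 4.0.16 (TMM factors, robust quasi-likelihood test, Benjamini-Hochberg adjustment over all genes, threshold 0.05). Log2 fold changes are formoterol minus vehicle with SE. CPM is scaled with TMM factors, and levels between genes are compared per kilobase of deposited gene length. Centred log2 CPM used a prior count of 2. DESeq2 1.42.0 and limma 3.58.1 were alternatives, as were other scalings, no filter and leaving out each library. No 2 libraries of a group agreed within sampling noise (chi-square per degree of freedom at least 24.0).

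The members and lists were chosen with earlier results of these data known. Named genes are the annexins, the S100 partners, up to 4 genes with the smallest p in each other partner list, and the 5 nearest genes per pattern. Some genes that this rule names are not reported here. The 11 marker lists were summed per library.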

Additional observations from a re-analysis of the deposited data

Results flagged for a closer look

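A library was set aside for notice where its gap to the nearest other library of its group, divided by the range of the group, was above the 95% critical value of Dixon's test. Of 78 groups of values examined, 9 had such a library, 5 of them M49. Chance alone gives about 1 in 20 for independent groups. These groups share libraries, and the sums and shares reuse the counts of the single genes, so the 9 cannot be set against that rate. Formoterol library M49 stood above the other 4 for Anxa2 CPM (gap share 0.83, 43.7 CPM), for Anxa5 CPM (gap share 0.797, 118 CPM) and for Plau (gap share 0.752, 2.58 CPM). It did so too for the summed length-scaled level of the 8 annexins (gap share 0.84, 140.3 CPM per kilobase) and for the share of Anxa2 in that sum (gap share 0.736, 8.35%). Vehicle library M59 stood below the other 3 for Anxa9 (gap share 0.947, 0.73 CPM), for Fpr1 (gap share 0.878, 1.03 CPM) and for the share of Anxa7 in the sum (gap share 0.918, 13.9%). Vehicle library M56 stood above the other 3 for the share of Anxa3 in the sum (gap share 0.926, 1.24%).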

How the results depend on the processing

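Over all genes edgeR called 0, and at an unadjusted p under 0.05 it had 1178 higher and 721 lower. Without a filter on low counts it called 263 (191 higher, 72 lower), DESeq2 called 314 (221 higher, 93 lower), limma-voom 0 and, with samples weighted by quality, 1374 (792 higher, 582 lower). With 1 library left out edgeR called 0 to 702, the highest without M49, and 4 without M60. Of the partner genes it called 1 without the filter (Tmem30a, adjusted p = 0.0393) and 0 to 5 with 1 library left out, and limma-voom with quality weights called 8 (4 higher, 4 lower). Anxa1, Anxa2 and Anxa5 kept a negative log2 fold change under all 16 alternatives (Anxa2 −1.71 to −0.997, Anxa5 −1.40 to −0.79), and the median of the 8 members stayed between −0.30 and −0.06. S100a6, at 0.17 with all libraries, was −0.018 without M58 and at most 0.36, without M46. Scaling to library totals only moved the median of all genes to −0.16, against −0.01 with TMM. The share of Anxa5 in the length-scaled sum, 38.1% over 9 libraries, was 36.3% to 39.9% with 1 library left out. No paired analysis was possible because the columns of the table carry no replicate number. Anxa1, Anxa3, Anxa8, Anxa9, Anxa13 and the partner genes near 1 CPM rest on low counts, as do Cln6, Pgam1-ps2, Dlx1as and Otulinl. The p-values set a group difference against the spread within the groups and rest on these 9 libraries only.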
